A study of Mus musculus with 6 samples.

Results

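The regions described here are strong accessible regions of ordinary width. They were chosen by 2 measured values of the deposited ATAC-seq set, a score of at least 100 and a width below 3000 bp, on chromosomes 1 to 19. Of 492050 autosomal regions, and 495233 in all, 7498 met both limits, which is 1.52% of the autosomal regions. All samples came from R1, a mouse embryonic stem cell line, formed into embryoid bodies in hanging drops for 48 h and then treated with retinoic acid (labelled 0.5 mM) to day 6. ATAC-seq was run on 3 samples and RNA-seq of polyadenylated RNA on a further 3. Before differentiation the cells were kept with LIF at 1000 U/ml and 15% serum replacement. There is no untreated or earlier group, so the data give states at day 6 and no changes.

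ATAC-seq marks DNA that Tn5 transposase can reach because nucleosomes are absent or loosely held. Such regions include gene promoters, enhancers and sites of the insulator protein CTCF. In most cell types the promoters of active genes, which often lie in CpG islands, are among the most open sites, and enhancers vary more between cell types. The 3 ATAC-seq samples came as 1 joint set with 1 score per region, so no spread between samples can be given for any region. The score is the authors' own value on a scale that the labels and the file leave unstated, so it serves here for description and ranking alone. Positions refer to mm9, counted from 1. No mm9 sequence or gene annotation was used here, so the regions are named by position and no gene is tied to a single region.

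The labels call the cells embryonic stem cells, and the RNA at day 6 went against that name in part. Pou5f1 and Nanog, core pluripotency factors, stood at 0.815 ± 0.0792 and 0.0879 ± 0.0318 FPKM (SD, n = 3), while Esrrb and Zfp42, also used as stem cell markers, stood at 6.17 ± 0.222 and 2.14 ± 0.542 FPKM. Sox2, the highest gene of the stem cell list and also a marker of neural progenitors, stood at 84.8, 76.7 and 77.1 FPKM in replicates 1, 2 and 3. The neuronal tubulin gene Tubb3 reached 655, 643 and 638 FPKM in replicates 1, 2 and 3, and the radial glial gene Fabp7 919, 909 and 903 FPKM. Sparc, a basement membrane gene of extraembryonic endoderm, stood at 228, 287 and 293 FPKM, lowest in replicate 1. Markers of neurons, neural progenitors and endoderm were thus all present in the RNA, and which cells gave which region was not tested.

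The strong regions lay in the upper tail of the score, and most of them were well above the limit. Their median score was 170, with quartiles of 129 and 228, against a median of 5.24 over all autosomal regions. Of the 7498, 2923 (39.0%) scored below 150, 1867 between 150 and 200, 2079 between 200 and 300, 533 between 300 and 400, and 96 at 400 or more. On a log2 scale the number of autosomal regions per step was greatest between 4 and 4.76, fell steeply from there to a score of about 76 and then fell slowly. The steps of 0.25 log2 units between 108 and 215 held 1308, 1297, 1219 and 1185 autosomal regions, of which 1245, 1221, 1150 and 1104 were strong regions of ordinary width. Above 304 the steps emptied quickly, with 405, 187 and 41 regions. The limit of 100 lies in the lower part of this flatter stretch and not in a gap.

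**Figure D1:**
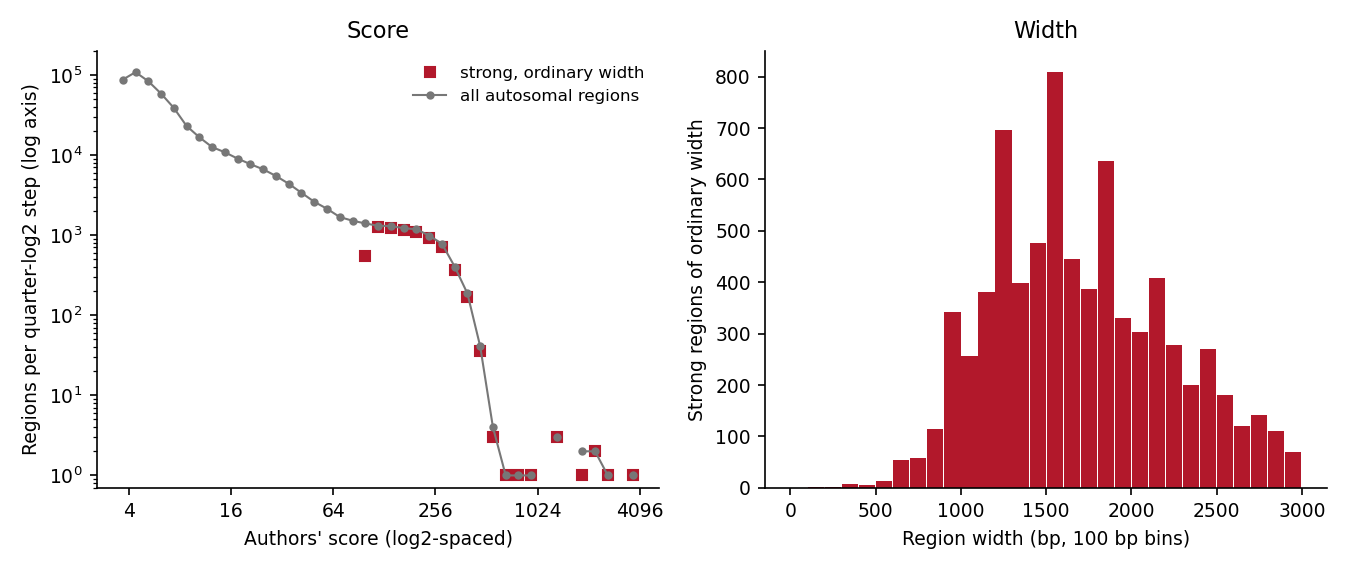
Left, number of regions in steps of 0.25 log2 units of the authors' score, for strong regions of ordinary width (squares) and all autosomal regions (line), on a log axis; right, widths of the strong regions in 100 bp bins. The score steps change little between 108 and 215, from 1308 to 1185 regions,, and the widths peak every 300 bp from the bin of 900 to 1000 bp.

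Widths had a median of 1626 bp, with quartiles of 1289 and 2068 bp, against 332 bp over all autosomal regions. They were not spread evenly. In bins of 100 bp the counts from 900 bp up peaked 7 times, each 300 bp apart, at 342 regions between 900 and 1000 bp, 697 between 1200 and 1300 bp, 810 between 1500 and 1600 bp, 635 between 1800 and 1900 bp, 409 between 2100 and 2200 bp, 270 between 2400 and 2500 bp and 142 between 2700 and 2800 bp. These peak bins held 3305 of the strong regions. Below 900 bp there was 1 further local peak, of 7 regions between 300 and 400 bp. The remaining autosomal regions peaked in the same 7 bins, for example with 15161 between 900 and 1000 bp against 13214 and 7068 in the bins on either side. They also peaked below 900 bp, with 123462 between 300 and 400 bp and 39643 between 600 and 700 bp. The spacing is thus not particular to the strong regions. The source of this spacing was not tested. No 2 regions of the set lay closer than 151 bp.

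Among the strong regions, higher scores went with greater widths up to a score of 600. Median widths were 1518 bp at scores of 100 to 150, 1596 bp at 150 to 200, 1789 bp at 200 to 300, 1928 bp at 300 to 400 and 2183 bp at 400 to 600. The share of regions too wide for the limit was greater in each higher band, at 4.94%, 6.42%, 6.98%, 9.04% and 13.3%. At 600 or more it was 15.4%, from 2 broad regions. Altogether 504 autosomal regions of score 100 or more were 3000 bp or wider, so the strong regions make up 93.7% of those above the score limit. Both values chose the regions, so these figures are a description.

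**Figure D2:**
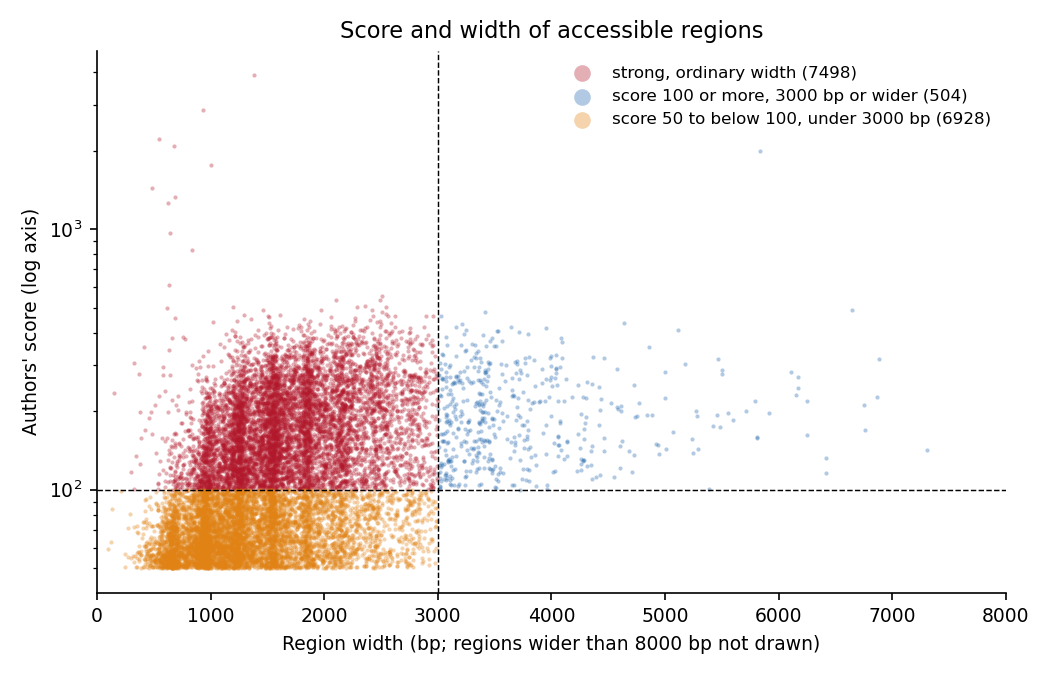
Authors' score (log axis) against region width for strong regions of ordinary width, regions of score 100 or more that are 3000 bp or wider, and regions of score 50 to below 100 under 3000 bp; dashed lines are the limits of 100 and 3000 bp. Among the strong regions the scores of most points reach higher with width, up to 553. Above that lie 11 strong regions no wider than 1385 bp, at 610 to 3886.

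Neither limit falls at a break in the values. The 5 lowest strong regions all scored 100.028, among them chr11:101526116-101527284 and chr13:67783919-67784772. The 5 nearest regions of less than 3000 bp below the limit scored 99.9977 to 99.8966, led by chr11:120657461-120658252. The widest strong regions measured 2995 to 2998 bp, with chr2:17976753-17979750 at 2998 bp and a score of 219. The nearest regions left out for their width measured 3000 to 3011 bp, starting with chr4:137805422-137808421 at 3000 bp and a score of 116.

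Among the strong regions, the highest scores belonged to a small group of mostly narrow regions that stood apart from the rest. The width limit left out 2 broad regions of score 600 or more. These scored 1987.5 at 5837 bp and 605.7 at 8979 bp. The 10 highest scored between 830 and 3886, and 8 of them were narrower than 1000 bp, with a median width of 681 bp. The highest of all was chr2:98506250-98507634, 1385 bp wide with a score of 3886. It was followed by chr1:24619247-24620179 (933 bp, score 2868), chr12:3109724-3110270 (547 bp, score 2213) and chr9:35112649-35113322 (674 bp, score 2082). The narrowest of the 10 was chr6:103598901-103599388, with 488 bp and a score of 1437. The others were chr3:5860267-5860954 (688 bp, score 1332) and chr11:108872754-108873588 (835 bp, score 830), beside 3 further regions on chromosome 2.

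From rank 11 to rank 20 most regions were wide. Their scores ran from 489 to 610 and their median width was 2196 bp, with 2 of 10 below 1000 bp. The highest of the wide ones were chr3:75359872-75362378 (2507 bp, score 553), chr16:42874553-42877046 (2494 bp, score 535) and chr9:4308707-4310810 (2104 bp, score 534). Rank 11, chr5:15114935-15115565, was again narrow, with 631 bp and a score of 610. All 11 strong regions at 600 or more were between 488 and 1385 bp wide and lay on 8 autosomes. The 618 strong regions between 300 and 600 had a median width of 1972 bp. Lists of sites with excess signal in mouse assemblies exist and are commonly removed from such sets. No such list was used here, so whether the narrow regions of highest score, or the runs described below, stand on one was not tested.

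On the other 11 autosomes the highest strong region scored below 600. It reached 535 on chromosome 16, 506 on chromosome 8 (chr8:4677159-4679513), 502 on chromosome 18 (chr18:31793215-31795761), 489 on chromosomes 15 (chr15:44450127-44451589) and 17 (chr17:64680446-64682421) and 480 on chromosome 13 (chr13:17785626-17788132). It was between 463 and 464 on chromosomes 7 (chr7:6314515-6317075), 4 (chr4:3864549-3867443) and 14 (chr14:45838011-45840972). The lowest of these leaders were chr10:10868670-10870451 at 429 and chr19:12039299-12041549 at 386. Of these 11 regions, that on chromosome 15 was the narrowest, at 1463 bp, and that on chromosome 14 the widest, at 2962 bp. Median scores by autosome differed much less than the leaders, from 159 on chromosome 15 to 189 on chromosome 12, and median widths from 1573 to 1708 bp.

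Some narrow strong regions sat together in tight runs. The 4 on chromosome 2 formed a run of 5377 bp, chr2:98502258-98507634, in which scores were 1758, 968, 1261 and 3886 from left to right at widths of 1006, 645, 622 and 1385 bp. The start of the assembled part of chromosome 9 held 19 regions between chr9:3000001 and chr9:3038389, of which 11 were strong and none was wider than 937 bp. Among these, 9 lay in chr9:3023268-3037581 with scores from 100.112 to 306, which had the most members of any run of strong regions no more than 5 kb apart. On chromosome 8 there were 2 runs of mixed width. In chr8:19693605-19704395 lay 4 strong regions of 299 to 1509 bp, and in chr8:19759483-19768679 lay 3 of 754 to 1825 bp. Of the 5 narrowest strong regions, chr8:19696232-19696530 (299 bp, score 117) and chr8:19721325-19721667 (343 bp, score 135) lay in or near these runs. Those on other chromosomes included chr14:4249385-4249535, 151 bp wide with a score of 236, and chr9:3024394-3024718, 325 bp wide with a score of 306.

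Such runs held a small share of the strong regions. Joined at distances of up to 5 kb, 423 of the 7498 strong regions (5.64%) fell into 199 runs, of which 183 were pairs and 16 held 3 or more. This share also depends on the size of the set, and runs were not counted in the other sets. Close pairs were most frequent among the narrowest regions. Of the 15 regions below 500 bp, 7 had another strong region within 5 kb, as did 68 of 583 (11.7%) between 500 and 1000 bp, 141 of 2210 (6.38%) between 1000 and 1500 bp, 120 of 2608 (4.60%) between 1500 and 2000 bp, 54 of 1459 (3.70%) between 2000 and 2500 bp and 33 of 623 (5.30%) between 2500 and 3000 bp. Wider regions also formed runs, such as chr8:96695869-96711741, where 4 regions of 1591 to 2159 bp scored 108.012 to 176.

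Distances between strong regions depend on how many the limits keep, so they do not show whether the regions cluster. The median distance to the nearest other strong region was 50755 bp, with quartiles of 22428 and 118498 bp. With a score minimum of 50, which kept 14426 regions, the median was 29373 bp, and with 200, which kept 2708, it was 135106 bp. Within 10 kb 845 (11.3%) had another, within 50 kb 3697 (49.3%) and within 100 kb 5275 (70.4%). By score, the median was 50273 bp at 100 to 150, 45518 bp at 150 to 200, 52069 bp at 200 to 300, 70362 bp at 300 to 400 and 95940 bp at 400 to 600, but 8985 bp for the 11 regions at 600 or more. Of those 11, 4 form the run on chromosome 2, where each has its nearest strong region inside the run. The most isolated of the 20 highest was chr6:103598901-103599388, with no other strong region for 1083890 bp.

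The share of strong regions with another region of the set within 1 kb was the lowest of the sets compared. Another region of any score lay within 1 kb, edge to edge, of 2991 strong regions (39.9%), against 54.2% of the 504 broad regions, 48.7% of the 6928 regions of score 50 to below 100 and less than 3000 bp, and 48.9% of all other autosomal regions. The median distance to the nearest region was 1373 bp for strong regions, 835 bp for broad ones, 1039 bp for those of score 50 to below 100 and 1035 bp for the others. Within 5 kb the shares were close together, at 90.8% for strong regions, 95.4%, 93.5% and 91.6%. No test was made of these shares, because all regions come from 1 joint set and are not replicates.

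The order of the shares was the same in each of 5 width classes from 500 to 3000 bp. Between 1000 and 1500 bp, 37.8% of 2210 strong regions had another region within 1 kb, against 46.3% of 2207 regions of score 50 to below 100 and 55.7% of 22274 other regions. Between 2000 and 2500 bp the shares were 42.6% of 1459, 51.3% of 661 and 63.7% of 1492, and between 2500 and 3000 bp they were 46.4% of 623, 58.9% of 258 and 65.5% of 452. Among the strong regions the share hardly moved with the score up to 400, at 39.9% for scores of 100 to 150 and 39.2% for 300 to 400. It was 43.5% of 85 regions for 400 to 600. At 600 or more it was 72.7% of 11 regions, and those 11 include the 4 of the run on chromosome 2.

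**Figure D3:**
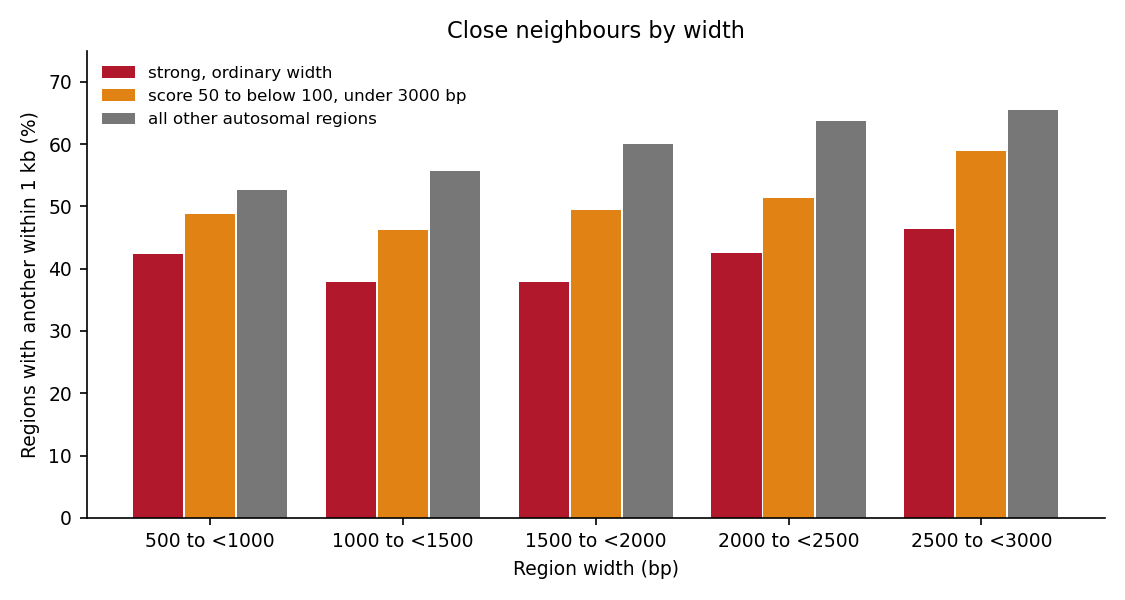
Percent of regions with another region within 1 kb, by width, for strong regions of ordinary width, regions of score 50 to below 100 and all other autosomal regions. In each width class the strong regions have the lowest bar, from 37.8% to 46.4%, and the other autosomal regions the highest, from 52.6% to 65.5%.

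The neighbours of strong regions were mostly weak, as were those of the other sets. Within 10 kb of its centre a strong region had a median of 4 other region centres, against 4 for broad regions, 5 for regions of score 50 to below 100 and 5 for all other regions. The best of these neighbours scored a median of 14.9, with quartiles of 7.53 and 35.5, against 16.5 for broad regions, 19.5 for regions of score 50 to below 100 and 12.4 for all others. For 2616 strong regions (34.9%) the best neighbour scored below 10. That share was 31.3% for broad regions, 28.6% for regions of score 50 to below 100 and 40.7% for all others. For 749 strong regions (9.99%) the best neighbour scored 100 or more, against 7.54%, 11.6% and 6.64% in the same order. Another 199 strong regions (2.65%) had no neighbour at this distance. These counts run from centre to centre, so a region's own width keeps other centres away. Median widths were 1626 bp for strong regions and 328 bp for all others. From 0 to 1000 bp after its centre a strong region had 0.00934 other centres, against 0.153 for all others. From 5000 to 6000 bp the values were 0.243 and 0.283.

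Along the chromosomes the strong regions were gathered in some megabases and missing from others. Of 2412 windows of 1 Mb that held any region, 656 (27.2%) held no strong region, 366 held 1 and 152 held 10 or more. The median was 2 and the mean 3.11. The densest 10% of windows (241) held 36.5% of the strong regions, and the densest 10% for each other set held 62.1% of the 504 broad regions, 32.5% of regions of score 50 to below 100 and 17.6% of all other autosomal regions. Such shares also depend on the size of a set, since 504 regions cannot reach most of 2412 windows. They therefore do not rank the sets by clustering. The windows with 10 or more held 26.3% of the strong regions.

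**Figure D4:**
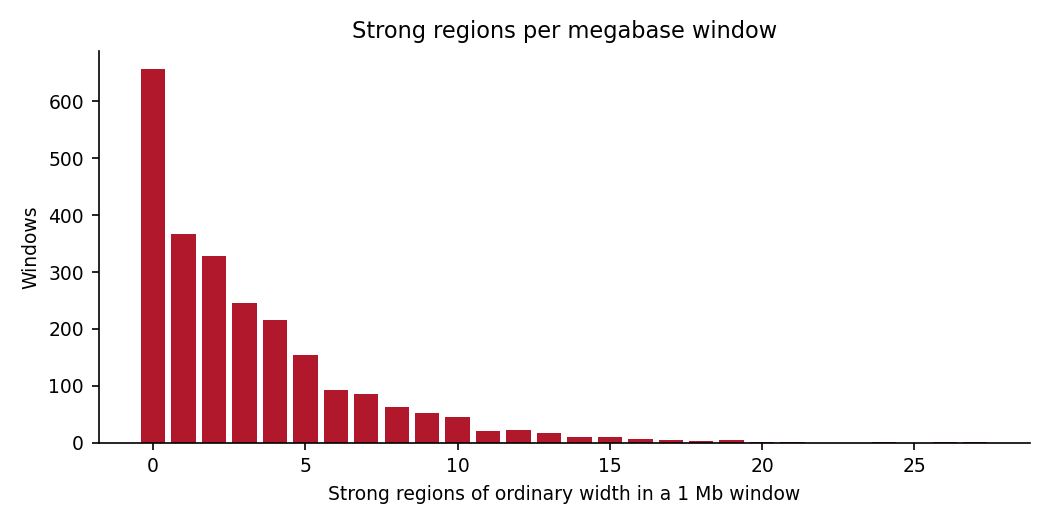
Number of 1 Mb windows (vertical axis) by how many strong regions of ordinary width they held (horizontal axis), over the 2412 windows with any accessible region. The tallest bar is that of 656 windows with none, and the tail reaches 27 in a window.

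The densest windows were chr10:80000001-81000000 and chr17:56000001-57000000, with 27 strong regions each. In the first, 313 regions lay in all, and in the second 280. The window before the first of these, chr10:79000001-80000000, held 26. Dense windows adjoined each other elsewhere too. Chromosome 8 had 18, 24 and 19 strong regions in the 3 windows from 72 to 75 Mb, led by chr8:73000001-74000000, and chromosome 7 had 17, 16, 17 and 16 in the 4 windows that start with chr7:28000001-29000000. The window chr7:13000001-14000000 held 17 strong regions among only 154 regions, and chr7:52000001-53000000 held 24 among 318. The median window held 205 regions outside the strong, broad and score 50 to 100 sets.

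Long stretches without a strong region still held accessible regions. There were 581 such stretches longer than 1 Mb and 27 longer than 5 Mb. In the longest, chr5:54391482-64358619, 758 regions lay over 9.97 Mb, with a highest score of 99.5. In chr3:41546971-51028038, of 9.48 Mb, there were 690 regions, and 1 of them was a broad region with a score of 199.6. In chr15:16496837-25245531, of 8.75 Mb, the highest of 486 regions scored 85.7. These stretches held 76.0, 72.8 and 55.6 regions per Mb, against 203.8 per Mb over all autosomes. The stretch chr7:39013441-46704353 differed from them, with 86 regions over 7.69 Mb, or 11.2 per Mb. The whole set is sparse there, and whether this part of mm9 is assembled was not analysed here.

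Across 1 Mb windows the number of strong regions followed that of regions scored 50 to below 100 (Pearson r = 0.639, Spearman's rho = 0.625) and, less closely by r, that of all other regions (r = 0.476, rho = 0.608). For the 504 broad regions, fewer in number than the windows, r was 0.301 and rho 0.218. These coefficients are over 2412 windows that share their chromosomes and base composition, and they are given as a description with no p-value. Each chromosome was also divided into 10 equal parts from its first to its last region. Part 9 held 12.4% of strong regions and 11.6% of all autosomal regions, part 10 held 11.7% and 12.8%, and part 2 held 10.9% and 9.13%. Part 3 had the fewest strong regions per 100 regions of any score, 1.35, and part 2 the most, 1.81.

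Chromosomes differed 2.07 times in the density of strong regions. Chromosome 11 held 554, or 4.66 per Mb between its first and last region, followed by chromosome 7 with 3.98, chromosome 17 with 3.97 and chromosome 19 with 3.87 per Mb. The lowest densities were those of chromosomes 14 (2.25 per Mb), 12 (2.30), 1 (2.36) and 3 (2.50). By number, chromosome 2 had the most, 597, and chromosome 18 the fewest, 221. The density of all regions differed 1.38 times, from 177 per Mb on chromosome 14 to 245 on chromosome 11. Per 100 regions of any score, chromosome 7 had 2.07 strong ones and chromosome 12 had 1.21.

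The density of strong regions was set beside the density of expressed genes, a question that the series' title raises for expression and accessibility measured together. A gene counted as expressed at 1 FPKM or more in each of the 3 RNA-seq replicates, which held for 12171 genes, 11113 of them placed on an autosome by their symbol in the RefSeq annotation of GRCm38.p6. No position from that annotation was used. Chromosome 11 had 947, 959 and 950 genes at this level in replicates 1, 2 and 3, and chromosome 14 had 417, 420 and 419. In expressed genes per Mb, chromosome 11 was highest at 7.89, followed by chromosomes 19 (6.69), 17 (6.23) and 7 (5.82), while chromosomes 1 (3.32), 14 (3.36), 13 (3.38) and 3 (3.47) were lowest.

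Over the 19 autosomes, strong regions per Mb and expressed genes per Mb had a Pearson r of 0.960 and a Spearman's rho of 0.940. Without chromosomes 11 and 19, the farthest from the median in expressed genes per Mb, r was 0.947 over 17. With all genes of the table in place of the expressed ones r was 0.941 and rho 0.944, so by rank the expressed genes stood no closer. With all accessible regions in place of the strong ones r was 0.753. For regions of score 50 to below 100 it was 0.942 and for the broad regions 0.503, where an autosome held between 10 and 39. With the score limit raised to 200, which left 2708 regions, r was 0.762. These points share the length, gene density and base composition of their chromosomes, so the coefficients are descriptions, have no p-value and do not tie a region to a gene.

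**Figure D5:**
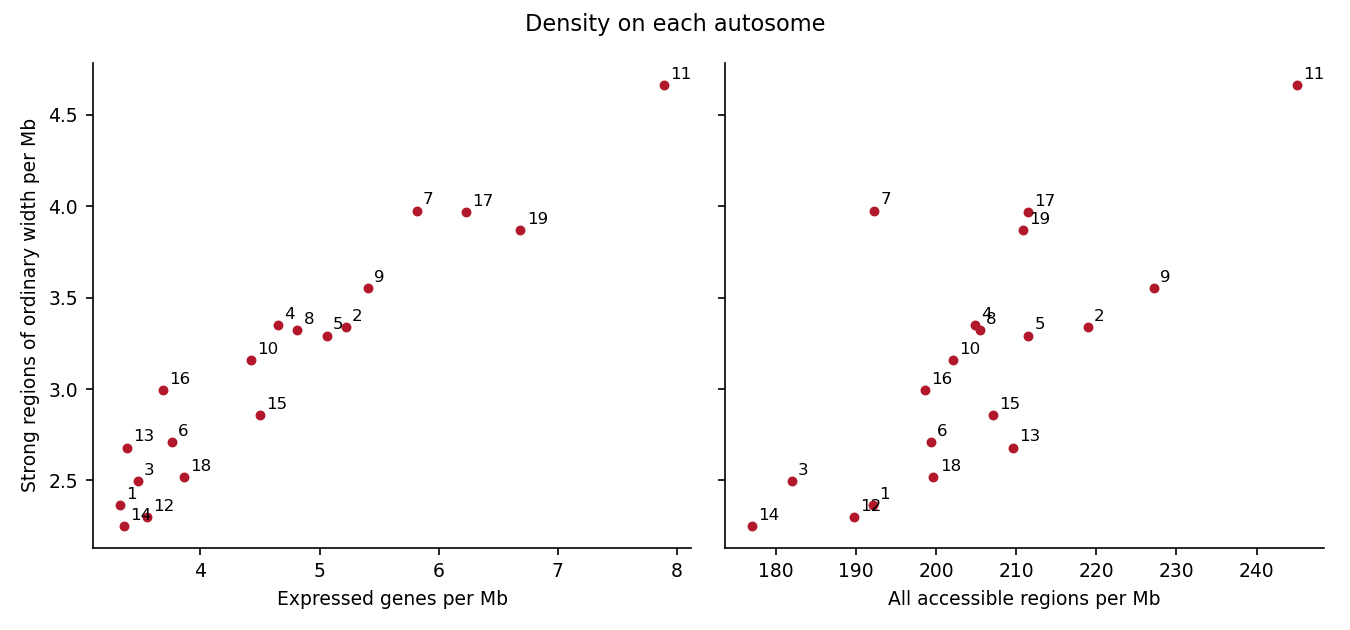
Strong regions of ordinary width per Mb on each autosome (numbered points) against expressed genes per Mb (left) and all accessible regions per Mb (right). On the left the points run close to a line from chromosomes 14 and 1 to chromosome 11; on the right chromosome 7 lies far above chromosomes of like density.

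There were 67.5 strong regions per 100 expressed genes over all autosomes. This figure ranged from 57.8 on chromosome 19 and 59.1 on chromosome 11 to 79.3 on chromosome 13 and 81.2 on chromosome 16, with a median of 67.1 and an SD of 5.97 over the 19 autosomes. The overall figure depends on what counts as expressed, and was 63.0 with a threshold of 0.5 FPKM and 95.2 with 5 FPKM. Chromosome 16, with 285 strong regions and 351 expressed genes, thus had more strong regions per expressed gene than chromosome 19, with 225 and 389. The strong regions covered 12.8 Mb in all, or 5.35% of the 238.6 Mb in autosomal regions, while making up 1.52% of their number.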

How the data were processed

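Processing by the authors is known only in part. Per the submitters' processing notes, Bowtie and Cufflinks were used with the build mm9, with no version or setting. The deposited ATAC-seq file holds a chromosome, start, end and score per region for the 3 samples jointly; no source used here gives the region caller, threshold, pooling or Tn5 offset, and its depth is unknown. The RNA-seq values, deposited with 1 column per replicate, were read as FPKM from its values and from Cufflinks being named. FPKM gives no read depth, and its sums were 494246, 477760 and 524717. Whether replicates were separate cultures is not stated.

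Regions were selected, and distances, 1 Mb windows (by region centre) and densities computed, with Python 3.11.15 and pandas 2.3.3. The functions that select regions, find the nearest region and merge regions were tested on simulated regions. Those for runs, windows and densities were not. Density is per Mb from a chromosome's first to its last region. RefSeq (GRCm38.p6) gave a chromosome for 22602 of 24002 symbols (94.2%). There is 1 condition and 1 joint region set, so no test was made. The regions named are the 20 highest, the highest on each autosome, and those at each limit, with runs, windows and stretches added after their values were seen. The members and lists were chosen with earlier results of these data known. The gene lists planned for genes at region starts were not used, since no mm9 annotation was at hand.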

Additional observations from a re-analysis of the deposited data

Results flagged for a closer look

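Chromosome X lies outside the 19 autosomes described above, and 202 of its regions met the same limits of score and width. They are given because this signal is in data that the comparisons do not use. They came to 1.24 per Mb, against 2.25 to 4.66 per Mb on the autosomes. All regions of any score came to 19.2 per Mb on chromosome X, against 177 to 245 on the autosomes, so that 6.45% of the 3131 regions of chromosome X met the limits, against 1.52% of autosomal regions. The median score of all regions on chromosome X was 9.81, against 5.24 on the autosomes. On chromosome Y none of 52 regions met both limits, and 6 scored 100 or more. The source of these differences was not tested.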

How the results depend on the processing

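Raising or lowering the score limit changed most values. At a minimum of 50 there were 14426 regions, 44.1% with another region within 1 kb and a median distance of 29373 bp to the nearest other member. At a minimum of 200 there were 2708, with a median distance of 135106 bp, and r with expressed genes per Mb was 0.762. With widths below 2000 bp, 38.4% had another region within 1 kb. Merging regions within 500 bp left 22.6%, since such neighbours are joined by construction. Counting neighbours within 500 bp gave 22.8%, and within 5000 bp 90.8%. The causes were not tested otherwise. Chromosome density ratios stayed between 1.70 and 2.31 under 5 alternatives. Without each RNA-seq replicate in turn, r lay between 0.959 and 0.960, members per 100 expressed genes between 66.9 and 67.2 (63.0 at 0.5 FPKM, 95.2 at 5 FPKM and 45.2 with genes above 0 in a replicate), and 18 of 20 markers stood at 1 FPKM or more; with thresholds of 0.5 and 5 FPKM the 18 became 19 and 17. No paired analysis was possible because the ATAC-seq samples came as 1 joint set and all samples share a condition. Not run, for want of an mm9 genome or annotation, were the alternatives on gene starts, base composition, motifs, listed genes and the pseudocount.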

Other observations

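Some score values recurred in even steps. The most common value among autosomal regions, 3.65, occurred 5034 times, and 64.6% of autosomal regions scored 10 to 50 lay a whole number of steps of 0.131 above it, within 0.03 of a step. That tolerance covers 6% of each step. Most strong regions were off these steps, with 35.8% on them at scores of 100 to 150, 17.2% at 200 to 300 and 9.70% at 300 or more.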
